A study of Mus musculus with 16 samples.

Results

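Rab proteins are small GTPases that sit on the membranes of vesicles and organelles. The array carried 58 gene symbols made of Rab, a number and at most a letter and a further digit, which leaves out Rab interactors. A gene was kept where 4 or more of the 16 arrays read 1 of its probes as well above background, and its brightest such probe stood for it. This gave 54 members, out of 22024 genes tested. The probe used was well above background on all 16 arrays for 39 members and on 4 to 15 arrays for the other 15. Rab33a, Rab36, Rab39b and Rab40b were not well above background on any array and were left out. The array's older names Rab1 and Rab7l1 are now Rab1a and Rab29.

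The samples were 4 sorted cell populations of untreated C57BL/6 mice, each with 4 arrays. The first 3 were macrophages from digested heart, sorted as live CD45+, MerTK+, CD64+ and Ly6c-negative cells. Of these, CCR2+ macrophages (CCR2+ Mac) were high for CCR2 and MHCII, MHC-IIHi macrophages (MHC-IIHi Mac) lacked CCR2 and were MHCII-high with low CD11c, and MHC-IIlo macrophages (MHC-IIlo Mac) lacked CCR2 and CD11c and were low for MHCII. The fourth population, Ly6cHi monocytes (Ly6cHi Mono), came from blood, so cell type and organ change together in every comparison with it. The mice's age and whether replicates were separate mice are not given in the sources used here, so p-values measure the spread between these samples, which may be technical.

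A Rab works as a switch. Exchange factors load it with GTP, GTPase-activating proteins return it to the GDP form, and in its GTP form it recruits effectors that move, tether or fuse vesicles. Lipid tails added after an escort protein presents the Rab to its transferase hold it on the membrane, and GDP dissociation inhibitors take it off again. Macrophages rely on Rabs for the uptake and breakdown of particles in phagosomes, for antigen presentation and for the release of granules and cytokines.

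Levels are log2 of the background-corrected signal, relative to the 75th percentile of the same array. A level of 0 is thus the 75th percentile, and a difference of 1 is a doubling. Each probe is a 60-base oligonucleotide, and probes bind with their own strength, so no level is compared between genes. The longest run of bases that any of the 79 Rab probes shared with a probe of another Rab gene, on either strand, was 11. More than 1 probe was kept for 16 members. Probes of 1 gene differed in several of these, as given below for Rab5a, Rab43, Rab27b and Rab9. For Rab13 and Rab4a, 1 probe of the pair separated all macrophage arrays from all monocyte arrays and the other did not. The first 30 bases of each of these probes are shown.
Rab13, brighter probe: acttgtctgatcattcgctttgcagaggac
Rab13, other probe: gctgcttttgttagagtattctcagtgttg
Rab4a, brighter probe: gagaacgtcgaagaggctttcatgcagtgt
Rab4a, other probe: aatgctaaacccacaggactcattaacacc

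Promoters of 4 of the 11 members called in all 3 macrophage groups are given for reference, chosen after the matches below were seen, as the 250 bases before the start of the transcript in RefSeq's GRCm38.p6 annotation. RefSeq's table held 57 such starts for 45 of the 54 members and 32851 for all genes. Capitals mark matches, on either strand, to any of 7 short motifs. These were the E-box (CACGTG), the CRE (TGACGTCA), the GC box (GGGCGG), a PU.1 motif (GAGGAAGT), an AP-1 motif (TGAGTCA), the CCAAT box (CCAAT) and the TATA box (TATAAA). None of these motifs contains another. For Rab34 and Rab27a, which have a pair of starts each, the start that held AP-1 or E-box letters is shown.
Rab34, chr11:78188177-78188426, plus strand: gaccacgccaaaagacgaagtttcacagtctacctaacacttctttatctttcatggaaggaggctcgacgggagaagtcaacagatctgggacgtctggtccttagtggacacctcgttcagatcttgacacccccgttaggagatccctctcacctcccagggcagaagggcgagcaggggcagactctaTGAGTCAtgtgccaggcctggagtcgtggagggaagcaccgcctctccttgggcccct
Rab13, chr3:90213465-90213714, plus strand: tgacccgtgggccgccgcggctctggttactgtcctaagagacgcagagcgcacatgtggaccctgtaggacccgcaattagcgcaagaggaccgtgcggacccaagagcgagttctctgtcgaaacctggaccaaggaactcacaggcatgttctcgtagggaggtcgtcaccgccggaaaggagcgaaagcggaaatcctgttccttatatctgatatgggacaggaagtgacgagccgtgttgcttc
Rab13, chr3:90220534-90220783, plus strand: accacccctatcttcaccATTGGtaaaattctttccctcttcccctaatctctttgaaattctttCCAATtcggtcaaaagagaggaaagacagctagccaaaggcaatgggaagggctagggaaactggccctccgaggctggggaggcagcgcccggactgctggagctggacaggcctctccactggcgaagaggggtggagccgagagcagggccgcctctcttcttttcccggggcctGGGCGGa
Rab27a, chr9:73063898-73064147, plus strand: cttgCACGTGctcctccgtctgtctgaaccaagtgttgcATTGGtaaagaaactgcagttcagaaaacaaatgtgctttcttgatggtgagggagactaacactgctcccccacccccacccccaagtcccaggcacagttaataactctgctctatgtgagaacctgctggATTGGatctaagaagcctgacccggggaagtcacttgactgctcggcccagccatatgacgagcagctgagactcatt
Rab32, chr10:10558208-10558457, minus strand: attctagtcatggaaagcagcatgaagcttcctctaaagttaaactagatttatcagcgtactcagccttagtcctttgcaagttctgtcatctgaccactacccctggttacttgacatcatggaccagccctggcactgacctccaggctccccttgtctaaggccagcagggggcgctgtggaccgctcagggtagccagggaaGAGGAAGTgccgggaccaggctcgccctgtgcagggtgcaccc
The GC box was found in 68.4% of the members' promoters and in 32.7% of all promoters, and the CCAAT letters in 40.4% and 33.8%. GC content, which bears on the chance of such a match, had a median of 60.8% in the members' promoters and 52.4% in all. GAGGAAGT was found in 3.51% of the members' promoters, those of Rab32 and Rab2b, and in 2.44% of all promoters. TGAGTCA was found in 3.51% of them, those of Rab34 and Rab15, and in 4.46% of all. Rab13 has a pair of starts in this annotation, and the first held none of the 7 motifs. A match is a run of letters and is not shown here to be a binding site.

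The 75th percentile of the signal ranged from 822 to 998 on the monocyte arrays and from 943.5 to 1680 on the macrophage arrays, and 52.8% to 69.3% of probe spots were well above background. Arrays of 1 group correlated at 0.916 to 0.981 over all genes. Of 6 tissue macrophage markers, Mertk and Adgre1 were called higher in each macrophage group. Mertk was not well above background in monocytes and was at least 46.2-, 67.2- and 72.3-fold higher in the CCR2+, MHC-IIHi and MHC-IIlo macrophages, and Adgre1 was 1.66 to 1.84 higher (log2). Fcgr1, Cd68 and Csf1r were not called, and Cx3cr1 was lower in MHC-IIlo macrophages (-1.30, adjusted p = 0.0143) and not called in the others (-0.43 and -0.40). The summed level of the list overlapped (119 to 154 times the array's 75th percentile in monocytes, 120 to 192 in macrophages). The summed Ly6c-high monocyte markers stood at 150.6 to 208.5 in monocytes, 6.24 to 24.3 in CCR2+ macrophages and 2.71 to 3.74 in the other macrophages.

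Against blood monocytes, heart macrophages had higher levels of Rab34, Rab6b, Rab23, Rab20 and, by 1 of its 2 probes only, Rab13, and lower levels of Rab27a, Rab44, Rab32, Rab19, Rab8a and Rab7l1. These 11 members were called (adjusted p under 0.05) in each of the 3 macrophage groups. By group, 12 members were called in CCR2+ macrophages (5 higher, 7 lower), where 22.0% of all genes were (9.85% higher, 12.2% lower). In MHC-IIHi macrophages 13 members were called (5 higher, 8 lower), against 21.6% of all genes (10.1% higher, 11.5% lower). In MHC-IIlo macrophages it was 15 members (8 higher, 7 lower), against 21.5% of all genes (9.97% higher, 11.5% lower). For the mean of the 3 macrophage groups it was 16 members (7 higher, 9 lower), against 27.6% of all genes (12.3% higher, 15.2% lower). As shares of 54 members these are 22.2%, 24.1%, 27.8% and 29.6%, all near the background. Among members called higher, Rab13 (on the probe used), Rab34, Rab2b and Rab25 had no monocyte array well above background. They passed the filter through macrophage arrays alone. As 3 of the 4 groups are macrophages, the filter admits genes seen only there more easily, for members and all genes alike. The counts of higher calls depend on this filter. The median difference of the 54 members was -0.21, -0.08 and 0.08 in the CCR2+, MHC-IIHi and MHC-IIlo macrophages, where the median of all genes was -0.10, -0.05 and -0.06. With the replicate number, which is also the slide, as a block, 20, 18, 21 and 23 members were called (37.0%, 33.3%, 38.9% and 42.6%), against 33.9%, 31.8%, 32.3% and 38.4% of all genes in the same fit. After normexp background correction the calls were 3 higher and 10 lower in CCR2+, 4 and 8 in MHC-IIlo macrophages and 5 and 10 for the mean, where 7.07% of all genes were higher and 16.7% lower, 7.51% and 14.6%, and 9.24% and 21.8%. In MHC-IIHi macrophages 7.13% of all genes were then higher and 12.5% lower, and the count of members is not given here.

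Markers of other cells moved with these comparisons. Of 8 cardiomyocyte markers, 7 were called higher in CCR2+ macrophages and all 8 in the other 2 groups, with a summed level of 18.2 to 35.0 in macrophages and 2.53 to 3.37 in monocytes. Of 4 fibroblast markers measured, 3 were higher in each macrophage group (3.76 to 10.4 against 1.12 to 1.36), and of 7 endothelial markers 3 to 5 (4.92 to 9.48 against 3.02 to 4.44). The summed platelet markers (1 of 6 called higher and 2 lower over the mean of the macrophages) stood at 15.8 to 58.1 in macrophages and 3.85 to 7.12 in monocytes. Both erythroid markers measured were lower in macrophages, at 0.24 to 1.66 against 10.3 to 46.1. The part of these cells' RNA in the Rab differences was not tested. In sorted populations a lower level cannot be told apart from fewer cells that hold the RNA.

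**Figure D1:**
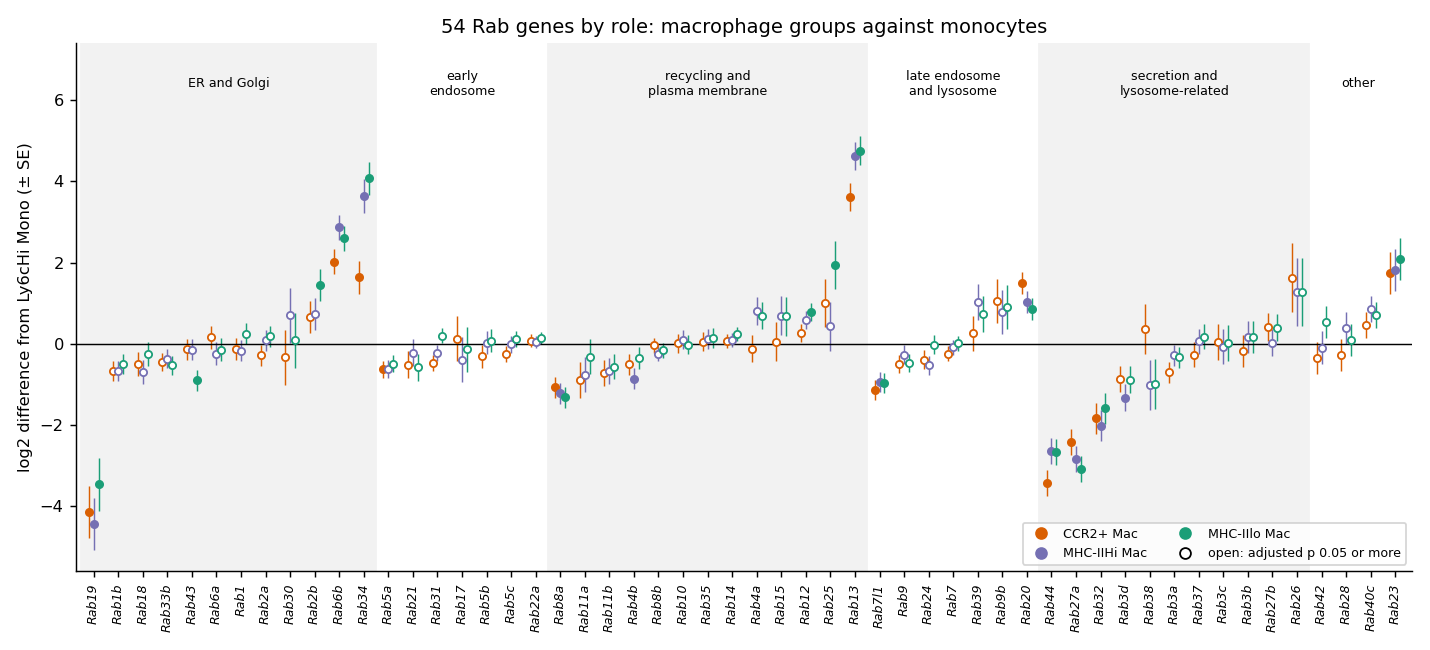
Log2 difference of each macrophage group from the Ly6cHi monocytes (y axis, ± SE) for the 54 Rab genes, ordered by role along the x axis; filled points have an adjusted p under 0.05 and open points do not. Most genes lie near 0, while Rab13 (by its brighter probe only), Rab34, Rab6b, Rab23 and Rab20 are filled above 0 and Rab27a, Rab44, Rab32, Rab19, Rab8a and Rab7l1 are filled below 0 in all 3 groups.

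Among 12 measured Rabs of traffic at the endoplasmic reticulum and Golgi, 3, 3 and 5 were called in the CCR2+, MHC-IIHi and MHC-IIlo macrophages. The shares of all genes called there were 22.0%, 21.6% and 21.5%. The called members went both ways, with Rab34, Rab6b and Rab2b higher and Rab19 and Rab43 lower. Rab34, which lies at the Golgi and takes part in placing lysosomes, read -4.79, -3.30, -2.83 and -3.78 in the CCR2+ macrophages, -1.55, -1.98, -0.65 and -2.53 in the MHC-IIHi macrophages, -0.68, -1.52, -1.07 and -1.68 in the MHC-IIlo macrophages and -5.14, -5.36, -5.26 and -5.49 in the monocytes. No monocyte array was well above background, 3 of 4 CCR2+ arrays were, and all arrays of the other macrophages were, with no overlap between macrophages and monocytes. The difference from monocytes was 1.64 ± 0.41 (adjusted p = 0.0101) in the CCR2+, 3.64 ± 0.41 (adjusted p = 9.99e-06) in the MHC-IIHi and 4.08 ± 0.41 (adjusted p = 2.9e-06) in the MHC-IIlo macrophages. As monocytes give only a bound, Rab34 was at least 3.35-fold higher in MHC-IIHi and at least 4.54-fold higher in MHC-IIlo macrophages (against the weakest signal that counted as well above background on each array), and no fold is given for CCR2+. After normexp correction the CCR2+ difference was 0.35 (adjusted p = 0.552). The MHC-IIHi and MHC-IIlo differences were then 1.55 and 1.87 (adjusted p = 0.0106 and 0.0026).

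Rab6b, a Golgi isoform best known from neurons, read -0.33, -1.13, -1.17 and -1.25 in the CCR2+ macrophages, 0.30, -0.20, -0.48 and -0.12 in the MHC-IIHi macrophages, 0.24, -1.10, -0.31 and -0.43 in the MHC-IIlo macrophages and -3.04, -3.03, -2.39 and -3.53 in the monocytes. Every macrophage array lay above every monocyte array, and 2 monocyte arrays were well above background. The difference was 2.03 ± 0.31 (adjusted p = 0.00023) in the CCR2+, 2.87 ± 0.31 (adjusted p = 5.94e-06) in the MHC-IIHi and 2.60 ± 0.31 (adjusted p = 1.58e-05) in the MHC-IIlo macrophages. With monocytes this near background the size is uncertain, and after normexp it was 1.09, 1.83 and 1.60 (adjusted p = 0.0107, 0.000128 and 0.000476). Its isoform Rab6a differed by 0.16 ± 0.28, -0.25 ± 0.28 and -0.15 ± 0.28 and was not called (adjusted p = 0.764, 0.652 and 0.801).

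Rab19, a little studied Rab of the Golgi region, went the other way and read -5.41, -3.08, -5.52 and -3.39 in the CCR2+ macrophages, -5.82, -3.59, -4.70 and -4.44 in the MHC-IIHi macrophages, -2.96, -5.11, -3.92 and -2.69 in the MHC-IIlo macrophages and -0.86, 0.31, 0.04 and -0.33 in the monocytes. All 4 monocyte arrays were well above background but only 2, 1 and 2 of the macrophage arrays, and the ranges did not overlap. The difference was -4.14 ± 0.64 (adjusted p = 0.000258) in the CCR2+, -4.43 ± 0.64 (adjusted p = 0.000114) in the MHC-IIHi and -3.46 ± 0.64 (adjusted p = 0.000935) in the MHC-IIlo macrophages. With few macrophage arrays above background its size is uncertain, and after normexp it was -2.68, -2.72 and -2.40 (adjusted p = 1.19e-06, 6.4e-07 and 2.83e-06).

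Rab2b, a Rab of transport between the endoplasmic reticulum and Golgi, read -2.43, -3.15, -3.27 and -3.03 in the CCR2+ macrophages, -3.07, -2.69, -2.85 and -2.99 in the MHC-IIHi macrophages, -1.59, -2.36, -2.70 and -2.05 in the MHC-IIlo macrophages and -5.06, -3.59, -2.79 and -3.08 in the monocytes. No monocyte array was well above background, and the MHC-IIlo arrays all lay above the monocyte arrays. It was called higher in MHC-IIlo macrophages, by 1.46 ± 0.40 (adjusted p = 0.0143) or at least 1.9-fold, and over the mean of the macrophages, by 0.95 ± 0.32 (adjusted p = 0.0391). The MHC-IIlo call ended after normexp correction (difference 0.38, adjusted p = 0.308) and with only these groups fitted (adjusted p = 0.0715). The call on the mean ended without any of 9 arrays (adjusted p 0.0503 to 0.196), namely monocyte replicates 1 and 2, CCR2+ replicates 1 and 4, MHC-IIHi replicates 2, 3 and 4 and MHC-IIlo replicates 1 and 4; without monocyte replicate 1 the difference was 0.47, and with the block adjusted p was 0.0529, under median scaling 0.084, under quantile normalization 0.0813 and after normexp 0.691 (difference 0.12).

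Rab1b, which drives export from the endoplasmic reticulum to the Golgi, read 1.09, 0.50, 0.65 and 0.56 in the CCR2+ macrophages, 1.15, 0.35, 0.84 and 0.48 in the MHC-IIHi macrophages, 1.27, 0.44, 1.08 and 0.70 in the MHC-IIlo macrophages and 1.77, 0.90, 1.52 and 1.30 in the monocytes. The ranges overlapped, but on each of the 4 slides every macrophage array lay below the monocyte array. It was called only over the mean of the macrophages, -0.61 ± 0.21 (adjusted p = 0.0374), and with the replicate block it was lower in each group (-0.67, -0.67 and -0.50; adjusted p = 0.000594, 0.000592 and 0.00419). The call on the mean, without the block, ended without any of 10 arrays (adjusted p 0.053 to 0.155): CCR2+ replicates 2 to 4, monocyte replicates 1, 3 and 4, and replicates 2 and 4 of both other groups. It also ended under median scaling (adjusted p = 0.0838) and normexp (0.108).

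Rab43, a Rab of the Golgi, read 3.11, 2.24, 2.72 and 2.14 in the CCR2+ macrophages, 2.89, 2.17, 2.89 and 2.24 in the MHC-IIHi macrophages, 2.30, 1.73, 1.66 and 1.47 in the MHC-IIlo macrophages and 2.76, 2.65, 2.81 and 2.53 in the monocytes. The MHC-IIlo arrays all lay below the monocyte arrays, and the other 2 macrophage groups overlapped with them. The MHC-IIlo difference was -0.89 ± 0.26 (adjusted p = 0.0199), against -0.13 ± 0.26 in CCR2+ and -0.14 ± 0.26 in MHC-IIHi macrophages, neither called. Another probe of Rab43 gave -0.44 (adjusted p = 0.234), median scaling gave an adjusted p of 0.0635, and leaving out monocyte replicate 3 or MHC-IIlo replicate 3 or 4 gave 0.0519 to 0.066. With the block, Rab43 was also called higher in CCR2+ than in MHC-IIlo macrophages (0.76, adjusted p = 0.015) and lower over the mean of the macrophages (-0.39, 0.0313).

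**Figure D2:**
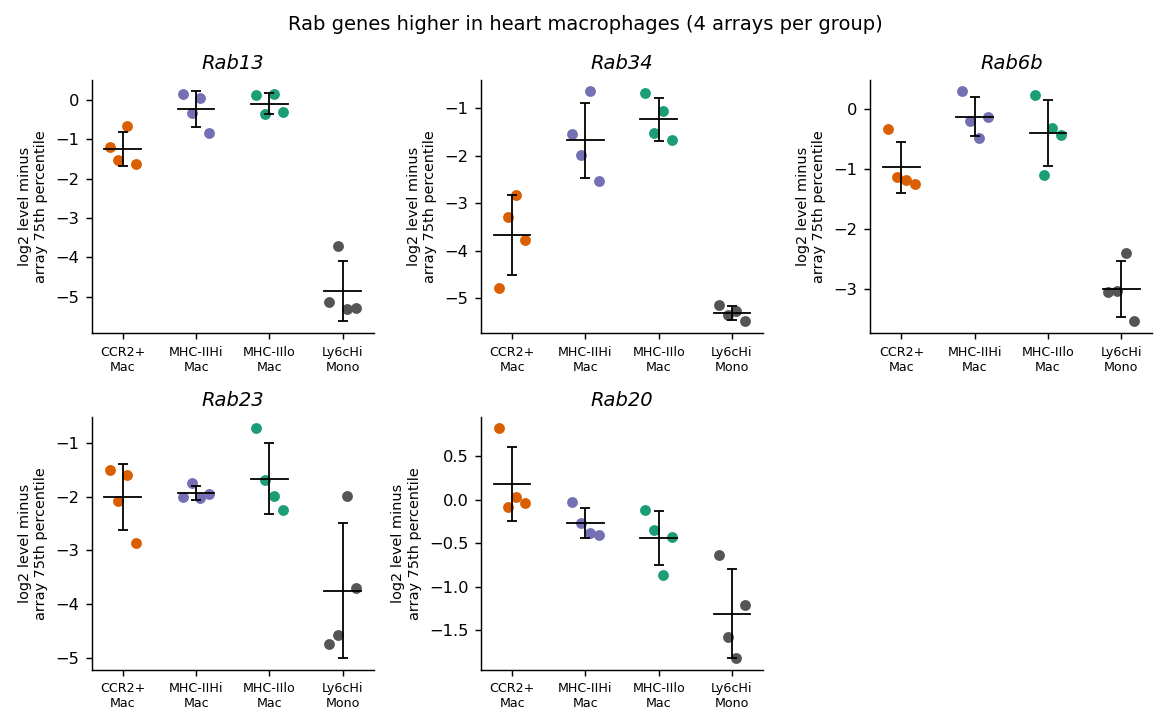
Levels of the 5 Rab genes called higher in all 3 macrophage groups, as log2 signal minus the array's 75th percentile (y axis), by group (x axis); points are arrays, the line the mean and the bars ± SD, with 4 arrays a group. Rab13 is shown by its brighter probe only. For that probe, Rab34 and Rab6b every macrophage array lies above every monocyte array, and for Rab34 the CCR2+ group lies between monocytes and the other macrophages.

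Of the 7 Rabs of entry and early endosome fusion, 1 was called in CCR2+ macrophages and none in the other 2 groups. The unadjusted p was under 0.05 for 1 of 7 in each, and the share of all genes at that threshold is not given here. Over all genes, 22.0%, 21.6% and 21.5% were called, by adjusted p, in the CCR2+, MHC-IIHi and MHC-IIlo macrophages. Rab5a, which drives fusion of early endosomes, read 1.03, 0.31, 0.56 and 0.29 in the CCR2+ macrophages, 0.90, 0.50, 0.64 and 0.20 in the MHC-IIHi macrophages, 0.75, 0.48, 0.92 and 0.62 in the MHC-IIlo macrophages and 1.37, 1.37, 1.15 and 0.82 in the monocytes. On each of the 4 slides every macrophage array lay below the monocyte array, while the ranges overlapped. The CCR2+ difference was -0.63 ± 0.21 (adjusted p = 0.0479) and that of the mean -0.58 ± 0.18 (adjusted p = 0.0216). With the replicate block Rab5a was also called in MHC-IIHi (-0.62, adjusted p = 0.00644) and MHC-IIlo macrophages (-0.49, adjusted p = 0.0241). Its other probe gave -0.18 in CCR2+ (adjusted p = 0.697) and -0.25 for the mean (0.436), and the CCR2+ call ended without any of CCR2+ replicates 2, 3 and 4 and monocyte replicates 1, 2 and 3 (adjusted p 0.0821 to 0.131). It also ended under median scaling (0.116), quantile normalization (0.0616), normexp (0.0522) and with only these groups (0.0998). The call on the mean ended without monocyte replicate 1, 2 or 3 (adjusted p 0.0508 to 0.0813) and under median scaling (0.0511), and both calls ended with the mean of the probes (0.179 and 0.0759).

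Its paralog Rab5c read 3.75, 3.39, 3.71 and 3.28 in the CCR2+ macrophages, 3.91, 3.57, 4.15 and 3.45 in the MHC-IIHi macrophages, 4.20, 3.67, 3.94 and 3.83 in the MHC-IIlo macrophages and 3.86, 3.75, 3.97 and 3.56 in the monocytes. All groups overlapped, and the differences from monocytes were -0.25 ± 0.20, -0.01 ± 0.20 and 0.13 ± 0.20 in the CCR2+, MHC-IIHi and MHC-IIlo macrophages, none called. Rab31, which works between the trans-Golgi and endosomes, read 1.02, 1.20, 1.17 and 1.14 in the CCR2+ macrophages, 1.58, 1.30, 1.67 and 0.99 in the MHC-IIHi macrophages, 2.11, 1.68, 1.90 and 1.53 in the MHC-IIlo macrophages and 1.92, 1.38, 1.55 and 1.56 in the monocytes. The 4 CCR2+ arrays were the closest together and lay below the 4 monocyte arrays. No comparison was called without the block; with it, Rab31 was lower in CCR2+ macrophages than in monocytes (-0.47, adjusted p = 0.0308, against 0.101 without) and than in MHC-IIlo macrophages (-0.67, adjusted p = 0.0224, against 0.0913).

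Of 13 Rabs of recycling and delivery to the plasma membrane, 2, 3 and 4 were called in the CCR2+, MHC-IIHi and MHC-IIlo macrophages. Calls over all genes made up 22.0%, 21.6% and 21.5%. Rab13, known for carrying membrane proteins to cell junctions and the leading edge, was called higher in each macrophage group on its brighter probe. That probe read -1.19, -1.52, -0.66 and -1.63 in the CCR2+ macrophages, 0.15, -0.33, 0.06 and -0.85 in the MHC-IIHi macrophages, 0.12, -0.37, 0.14 and -0.30 in the MHC-IIlo macrophages and -5.13, -3.72, -5.30 and -5.30 in the monocytes. No monocyte array was well above background, all macrophage arrays were, and the ranges lay apart. The difference was 3.61 ± 0.35 (adjusted p = 2.59e-06) in the CCR2+, 4.62 ± 0.35 (adjusted p = 1.1e-07) in the MHC-IIHi and 4.76 ± 0.35 (adjusted p = 7.36e-08) in the MHC-IIlo macrophages. Taken as a bound, the signal of this probe was at least 4.49-, 9.04- and 9.98-fold higher. After normexp its difference was 1.42, 2.34 and 2.49 (adjusted p = 0.00418, 3.14e-05 and 1.52e-05).

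The other Rab13 probe did not show this. It read -2.25, -1.98, -3.02 and -1.63 in the CCR2+ macrophages, -2.48, -0.94, -1.32 and -1.10 in the MHC-IIHi macrophages, -1.63, -0.64, -0.96 and -1.59 in the MHC-IIlo macrophages and -2.14, -1.60, -2.79 and -1.73 in the monocytes, was well above background on all 16 arrays, and overlapped between groups. Its differences were -0.16 ± 0.39 (adjusted p = 0.837), 0.60 ± 0.39 (adjusted p = 0.337) and 0.85 ± 0.39 (adjusted p = 0.143) in the CCR2+, MHC-IIHi and MHC-IIlo macrophages, in a fit of all 27662 kept probes. The brighter probe was designed on a RefSeq transcript and the other on a cDNA clone record. Under quantile normalization the other probe became the brighter of the pair and stood for the gene, and the CCR2+ difference turned to -0.20 (adjusted p = 0.731), with 0.301 and 0.109 in the other 2 groups.

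Rab4a, of fast recycling from early endosomes, showed the reverse case. Its brighter probe read -1.03, -0.43, -0.23 and -0.71 in the CCR2+ macrophages, 0.23, 0.31, 0.38 and 0.41 in the MHC-IIHi macrophages, -0.88, 0.50, 1.02 and 0.22 in the MHC-IIlo macrophages and 0.16, -0.97, -0.63 and -0.48 in the monocytes. Macrophages and monocytes overlapped except for the MHC-IIHi arrays, which all lay above the monocyte arrays, and the differences of -0.12 ± 0.34 (adjusted p = 0.864) in the CCR2+, 0.81 ± 0.34 (adjusted p = 0.111) in the MHC-IIHi and 0.70 ± 0.34 (adjusted p = 0.179) in the MHC-IIlo macrophages were not called. Its other probe read -2.28, -2.95, -2.37 and -1.62 in the CCR2+ macrophages, -0.76, -1.29, -1.38 and -0.82 in the MHC-IIHi macrophages, -0.26, -1.88, -1.23 and -1.43 in the MHC-IIlo macrophages and -4.15, -3.97, -4.47 and -3.43 in the monocytes. On that probe no monocyte array and every macrophage array was well above background, and the ranges lay apart. The other probe differed by 1.70 ± 0.35 (adjusted p = 0.00228), 2.94 ± 0.35 (adjusted p = 1.4e-05) and 2.81 ± 0.35 (adjusted p = 2.19e-05), or at least 2.03-, 4.81- and 4.37-fold. Neither probe's reading was checked by another method here, so Rab13 and Rab4a are reported by probe.

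**Figure D3:**
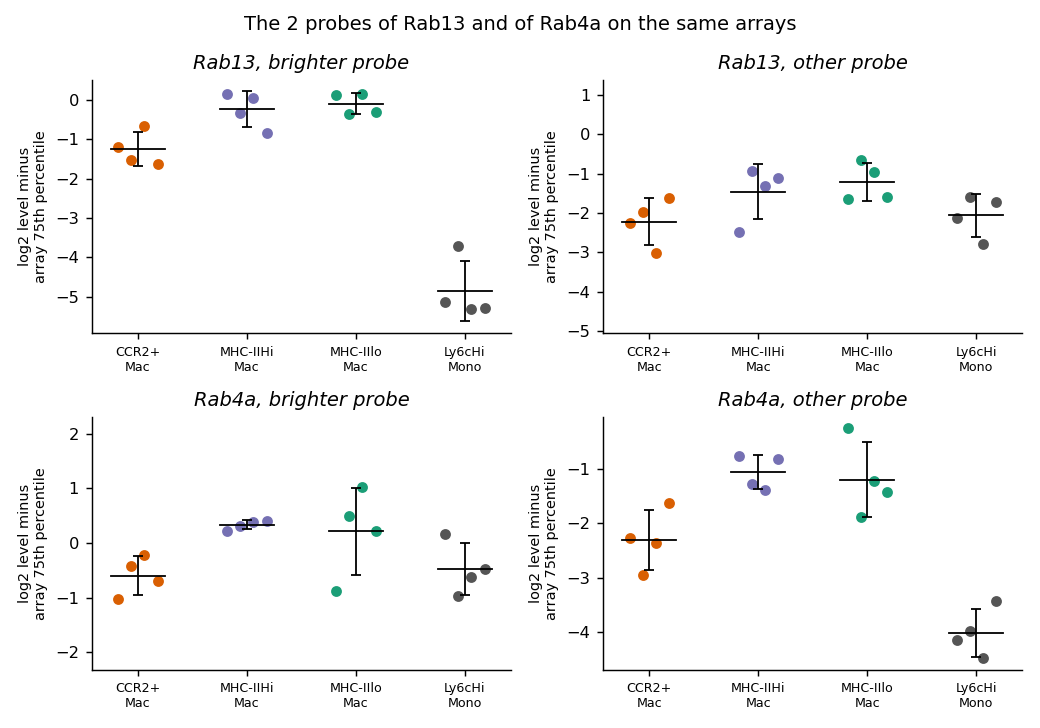
Levels of both probes of Rab13 (top) and of Rab4a (bottom) as log2 signal minus the array's 75th percentile (y axis, same span within a row), by group (x axis); points are arrays, lines means and bars ± SD, 4 arrays a group. The brighter Rab13 probe and the other Rab4a probe separate macrophages from monocytes, and their partner probes overlap.

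Rab8a, which carries vesicles to the plasma membrane and the primary cilium, read 1.46, 1.26, 2.00 and 1.24 in the CCR2+ macrophages, 1.36, 1.27, 1.59 and 1.12 in the MHC-IIHi macrophages, 1.48, 1.24, 1.26 and 0.98 in the MHC-IIlo macrophages and 1.78, 2.99, 2.51 and 2.96 in the monocytes. Monocyte replicate 1 lay lowest of its group, within the CCR2+ range, and the other macrophage groups did not overlap with monocytes. The difference was -1.07 ± 0.26 (adjusted p = 0.0078) in the CCR2+, -1.22 ± 0.26 (adjusted p = 0.00296) in the MHC-IIHi and -1.32 ± 0.26 (adjusted p = 0.00152) in the MHC-IIlo macrophages. Rab4b, a recycling Rab close to Rab4a, read 2.07, 1.77, 2.17 and 1.87 in the CCR2+ macrophages, 2.18, 1.50, 1.01 and 1.72 in the MHC-IIHi macrophages, 2.46, 1.61, 2.14 and 2.27 in the MHC-IIlo macrophages and 2.40, 2.21, 2.97 and 2.29 in the monocytes. The CCR2+ and MHC-IIHi arrays lay below the monocyte arrays, and the MHC-IIlo arrays overlapped with them. It was called in MHC-IIHi macrophages only, -0.86 ± 0.26 (adjusted p = 0.0266), with -0.50 ± 0.26 in CCR2+ and -0.35 ± 0.26 in MHC-IIlo macrophages; the difference between groups was not called (MHC-IIHi minus MHC-IIlo -0.51 ± 0.26, adjusted p = 1). That call ended without monocyte replicate 3 or MHC-IIHi replicate 2 or 3 (adjusted p 0.0661 to 0.0918) and under each other scaling or background setting (adjusted p 0.0551 to 0.077). It also ended with only the groups of the comparison fitted. With the block the mean was called (-0.57, adjusted p = 0.0325).

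Rab12, which directs receptors from recycling endosomes to lysosomes, read 1.88, 0.90, 1.37 and 1.00 in the CCR2+ macrophages, 1.74, 1.52, 1.69 and 1.45 in the MHC-IIHi macrophages, 2.17, 1.51, 1.93 and 1.62 in the MHC-IIlo macrophages and 0.97, 0.97, 1.30 and 0.82 in the monocytes. The MHC-IIlo arrays lay above all monocyte arrays, as did the MHC-IIHi arrays, while the CCR2+ arrays overlapped. The MHC-IIlo difference was 0.79 ± 0.22 (adjusted p = 0.018) and that of the mean 0.55 ± 0.18 (adjusted p = 0.0346); the MHC-IIHi difference of 0.59 ± 0.22 was called only with the block (adjusted p = 0.0111, against 0.0793). The MHC-IIlo call ended without monocyte replicate 4 or MHC-IIlo replicate 1 (adjusted p 0.0517 and 0.0542) and under median scaling (0.136). The call on the mean ended without any of CCR2+ replicate 3, monocyte replicates 1, 2 and 4 and MHC-IIlo replicate 3 (0.051 to 0.111) and under median scaling (0.202).

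Rab25, a Rab11 relative of epithelia, read -2.67, -3.21, -5.81 and -3.62 in the CCR2+ macrophages, -4.40, -4.01, -4.84 and -4.36 in the MHC-IIHi macrophages, -2.95, -4.23, -1.56 and -2.83 in the MHC-IIlo macrophages and -5.14, -4.41, -5.33 and -4.47 in the monocytes. It was well above background on 3 CCR2+, 3 MHC-IIlo and no other arrays, and the MHC-IIlo arrays lay above the monocyte arrays. The MHC-IIlo difference was 1.94 ± 0.60 (adjusted p = 0.0289), or at least 1.44-fold. The call ended after normexp (0.29, adjusted p = 0.576) and without monocyte replicate 1 or 3 or MHC-IIlo replicate 3 or 4 (0.0618 to 0.1). Rab11a, the main Rab of slow recycling, read -0.56, -0.43, -0.39 and -1.43 in the CCR2+ macrophages, -0.04, -0.78, -0.37 and -1.08 in the MHC-IIHi macrophages, 0.32, -0.39, -0.01 and -0.43 in the MHC-IIlo macrophages and 1.71, -0.42, 0.21 and -0.74 in the monocytes. Monocyte replicate 1 stood above its group, and all groups overlapped. No comparison was called without the block; with it the CCR2+ difference of -0.89 was (adjusted p = 0.0331, against 0.173), and that of the mean (-0.65, 0.0462). Rab35, which works in endocytic recycling at the plasma membrane, read 0.69, 0.24, 0.39 and 0.29 in the CCR2+ macrophages, 0.94, 0.23, 0.60 and 0.10 in the MHC-IIHi macrophages, 1.09, 0.25, 0.46 and 0.19 in the MHC-IIlo macrophages and 0.52, 0.37, 0.52 and -0.01 in the monocytes. All its groups overlapped, and its differences from monocytes of 0.05 ± 0.24, 0.12 ± 0.24 and 0.15 ± 0.24 were not called.

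Of 7 Rabs of late endosomes, lysosomes and phagosome maturation, 2 were called in each macrophage group, Rab20 higher and Rab7l1 lower. The shares of all genes called were 22.0%, 21.6% and 21.5% in the CCR2+, MHC-IIHi and MHC-IIlo macrophages. Rab20, which joins maturing phagosomes, read 0.82, -0.09, 0.03 and -0.03 in the CCR2+ macrophages, -0.03, -0.27, -0.39 and -0.40 in the MHC-IIHi macrophages, -0.12, -0.35, -0.87 and -0.43 in the MHC-IIlo macrophages and -0.63, -1.58, -1.82 and -1.22 in the monocytes. CCR2+ and MHC-IIHi arrays lay above all monocyte arrays, and 1 MHC-IIlo array fell within the monocyte range. The difference was 1.49 ± 0.27 (adjusted p = 0.000935) in the CCR2+, 1.04 ± 0.27 (adjusted p = 0.0114) in the MHC-IIHi and 0.87 ± 0.27 (adjusted p = 0.0311) in the MHC-IIlo macrophages, or 2.82-, 2.06- and 1.83-fold. With the block it was also higher in CCR2+ than in MHC-IIlo macrophages (0.63, adjusted p = 0.0458, against 0.363). The MHC-IIHi and MHC-IIlo calls ended after normexp (adjusted p = 0.106 and 0.223) and median scaling (0.058 and 0.111). The MHC-IIlo call also ended without any of monocyte replicates 2, 3 and 4 and MHC-IIlo replicates 1, 2 and 4 (0.0505 to 0.104), and with only the groups of the comparison fitted.

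Rab7l1 (Rab29), which recruits the kinase Lrrk2 to membranes, read 2.43, 1.74, 2.62 and 2.12 in the CCR2+ macrophages, 2.64, 2.20, 2.85 and 2.02 in the MHC-IIHi macrophages, 2.67, 2.16, 2.66 and 2.14 in the MHC-IIlo macrophages and 3.53, 3.32, 3.65 and 2.96 in the monocytes. Every macrophage array lay below every monocyte array. The difference was -1.14 ± 0.25 (adjusted p = 0.00407) in the CCR2+, -0.94 ± 0.25 (adjusted p = 0.0135) in the MHC-IIHi and -0.96 ± 0.25 (adjusted p = 0.0116) in the MHC-IIlo macrophages. Rab7, the general Rab of late endosomes and lysosomes, read 4.38, 4.32, 4.43 and 4.19 in the CCR2+ macrophages, 4.65, 4.33, 4.71 and 4.26 in the MHC-IIHi macrophages, 4.83, 4.37, 4.64 and 4.50 in the MHC-IIlo macrophages and 4.89, 4.22, 4.72 and 4.46 in the monocytes. Here all groups overlapped, and the differences of -0.24 ± 0.19, -0.09 ± 0.19 and 0.01 ± 0.19 were not called.

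Rab7b, a late endosome Rab related to Rab7, is on the array under the older clone name 5430435G22Rik and so falls outside the naming rule; it is named after its values were seen. It read 4.04, 3.85, 4.23 and 3.84 in the CCR2+ macrophages, 3.98, 3.76, 4.03 and 3.61 in the MHC-IIHi macrophages, 3.55, 3.21, 3.64 and 3.46 in the MHC-IIlo macrophages and 0.42, 0.54, 0.51 and -0.03 in the monocytes. The macrophage and monocyte ranges lay far apart. Its difference from monocytes was 3.63 ± 0.18 (adjusted p = 1.96e-09) in the CCR2+, 3.48 ± 0.18 (adjusted p = 2.18e-09) in the MHC-IIHi and 3.10 ± 0.18 (adjusted p = 6.9e-09) in the MHC-IIlo macrophages, and it was not called between macrophage groups.

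Of 11 Rabs of regulated secretion and lysosome-related organelles, none was called higher and 3, 4 and 3 were called lower in the CCR2+, MHC-IIHi and MHC-IIlo macrophages, where 12.2%, 11.5% and 11.5% of all genes were lower. The shares of all genes called higher were 9.85%, 10.1% and 9.97%. With the block, Rab27b was called higher in CCR2+ (0.42, adjusted p = 0.0395) and MHC-IIlo macrophages (0.40, adjusted p = 0.0486) on the probe used, while its other probe had lower means there. The median difference of these 11 was -0.27, -0.29 and -0.33, against -0.10, -0.05 and -0.06 over all genes. Rab27a, which docks secretory granules and lysosomes at the plasma membrane, read -0.40, -0.09, -0.30 and -1.18 in the CCR2+ macrophages, -0.37, -1.40, -1.08 and -0.81 in the MHC-IIHi macrophages, -0.51, -1.69, -1.32 and -1.13 in the MHC-IIlo macrophages and 2.33, 1.38, 2.16 and 1.82 in the monocytes. Monocytes lay above all macrophages, and the macrophage groups overlapped. The difference was -2.42 ± 0.32 (adjusted p = 5.37e-05) in the CCR2+, -2.84 ± 0.32 (adjusted p = 7.72e-06) in the MHC-IIHi and -3.09 ± 0.32 (adjusted p = 3.02e-06) in the MHC-IIlo macrophages, or 5.34-, 7.15- and 8.49-fold lower in macrophages.

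Rab44, a large Rab found in granule-bearing blood cells, read -3.02, -3.03, -3.07 and -2.72 in the CCR2+ macrophages, -1.25, -2.30, -2.47 and -2.67 in the MHC-IIHi macrophages, -2.45, -2.55, -1.29 and -2.52 in the MHC-IIlo macrophages and 0.21, 0.42, 0.62 and 0.60 in the monocytes. All monocyte arrays lay above all macrophage arrays. The difference was -3.42 ± 0.31 (adjusted p = 1.45e-06) in the CCR2+, -2.64 ± 0.31 (adjusted p = 1.57e-05) in the MHC-IIHi and -2.66 ± 0.31 (adjusted p = 1.35e-05) in the MHC-IIlo macrophages, and after normexp -2.63 in CCR2+ macrophages. Rab32, which serves lysosome-related organelles and phagosomes, read 0.37, -1.25, -0.47 and -0.87 in the CCR2+ macrophages, 0.13, -1.20, -0.62 and -1.25 in the MHC-IIHi macrophages, 0.48, -0.70, -0.26 and -0.75 in the MHC-IIlo macrophages and 1.59, 1.24, 1.29 and 0.98 in the monocytes. The ranges did not overlap, and within each macrophage group the array of slide 1 was the highest. The difference was -1.83 ± 0.38 (adjusted p = 0.0026) in the CCR2+, -2.01 ± 0.38 (adjusted p = 0.00113) in the MHC-IIHi and -1.58 ± 0.38 (adjusted p = 0.0064) in the MHC-IIlo macrophages.

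Rab38, the closest relative of Rab32, read -2.37, -2.73, -2.85 and -2.54 in the CCR2+ macrophages, -5.65, -2.97, -3.78 and -3.61 in the MHC-IIHi macrophages, -4.78, -4.44, -3.61 and -3.02 in the MHC-IIlo macrophages and -4.87, -2.07, -2.29 and -2.70 in the monocytes. All 4 CCR2+ arrays were well above background, with 2 MHC-IIHi, 1 MHC-IIlo and 3 monocyte arrays. CCR2+ arrays lay above the MHC-IIHi and MHC-IIlo arrays, yet the differences of 1.38 ± 0.62 (adjusted p = 0.464) and 1.34 ± 0.62 (adjusted p = 0.418) were not called, and none was called against monocytes. Rab3d, of secretory granules, read 1.25, 1.08, 0.69 and 1.05 in the CCR2+ macrophages, 1.24, 0.46, -0.29 and 0.80 in the MHC-IIHi macrophages, 1.31, 0.29, 0.90 and 1.50 in the MHC-IIlo macrophages and 2.41, 1.55, 1.90 and 1.65 in the monocytes. The macrophage arrays lay below the monocyte arrays in all 3 groups. The difference was -0.86 ± 0.33 (adjusted p = 0.0741) in the CCR2+, -1.33 ± 0.33 (adjusted p = 0.00783) in the MHC-IIHi and -0.88 ± 0.33 (adjusted p = 0.0692) in the MHC-IIlo macrophages, called in MHC-IIHi macrophages and over the mean (-1.02 ± 0.27, adjusted p = 0.00872). With the block, adjusted p was 0.0182 in CCR2+ and 0.0163 in MHC-IIlo macrophages, and its other probe was lower in both (-1.27 and -1.01; adjusted p = 0.00233 and 0.01).

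**Figure D4:**
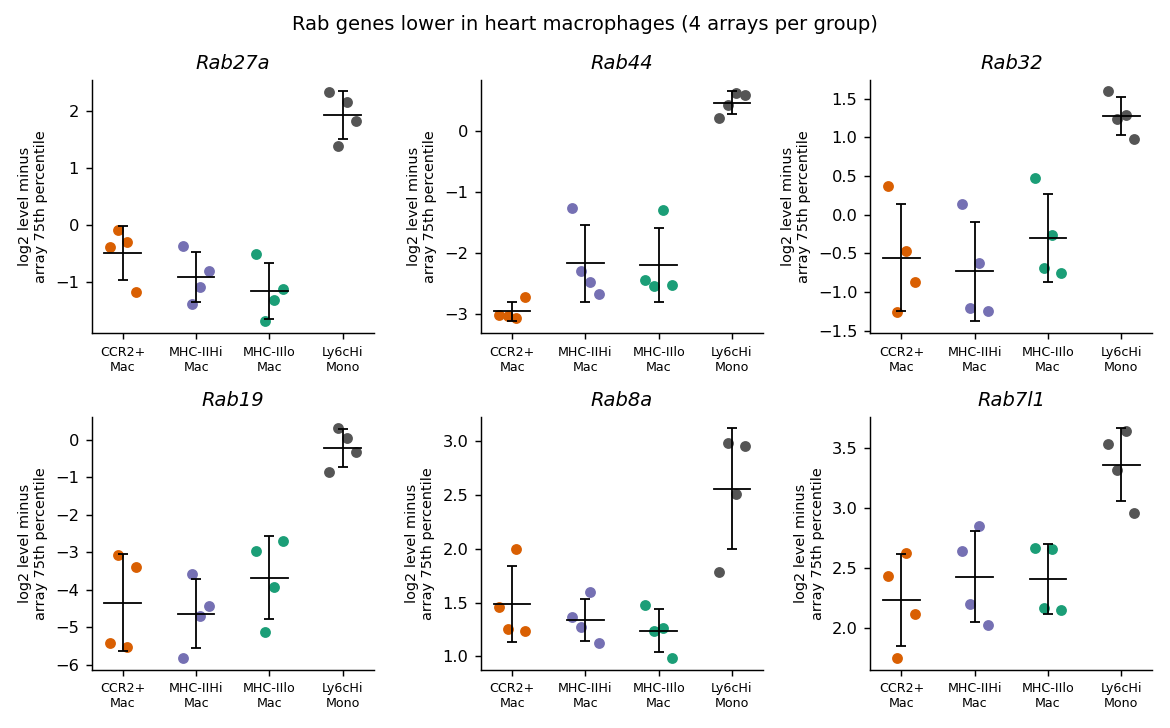
Levels of the 6 Rab genes called lower in all 3 macrophage groups, as log2 signal minus the array's 75th percentile (y axis), by group (x axis); points are arrays, the line the mean and the bars ± SD, with 4 arrays a group. Monocyte arrays lie above all macrophage arrays for each gene except Rab8a, where 1 monocyte array falls within the CCR2+ range.

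Of the 4 remaining members, grouped as less studied, 1 was called in each macrophage group, where 22.0%, 21.6% and 21.5% of all genes were. Rab23, a brake on Hedgehog signalling, read -1.50, -2.07, -1.60 and -2.86 in the CCR2+ macrophages, -2.00, -1.74, -2.02 and -1.95 in the MHC-IIHi macrophages, -0.73, -1.69, -1.99 and -2.25 in the MHC-IIlo macrophages and -4.75, -4.57, -1.98 and -3.69 in the monocytes. Monocyte replicate 3 lay within the macrophage range and was the only monocyte array well above background. The difference was 1.74 ± 0.51 (adjusted p = 0.0228) in the CCR2+, 1.82 ± 0.51 (adjusted p = 0.0175) in the MHC-IIHi and 2.09 ± 0.51 (adjusted p = 0.00718) in the MHC-IIlo macrophages. All 3 calls ended after normexp (adjusted p = 0.274, 0.282 and 0.136). The CCR2+ call ended without CCR2+ replicate 1 or 3 or monocyte replicate 1 or 2 (0.0623 to 0.0787), and with only the groups of the comparison fitted. The MHC-IIHi call ended without monocyte replicate 1 or 2 (0.0579 and 0.0621).

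The other 28 members were Rab1, Rab2a, Rab3a, Rab3b, Rab3c, Rab5b, Rab6a, Rab8b, Rab9, Rab9b, Rab10, Rab11b, Rab14, Rab15, Rab17, Rab18, Rab21, Rab22a, Rab24, Rab26, Rab27b, Rab28, Rab30, Rab33b, Rab37, Rab39, Rab40c and Rab42. None was called in any comparison without the block. With it 4, 2, 3 and 5 of the 28 were called in the CCR2+, MHC-IIHi and MHC-IIlo macrophages and over their mean against monocytes. Of all genes, 33.9%, 31.8%, 32.3% and 38.4% were called in the same fit. None of the 28 was called between macrophage groups, where 2.49%, 5.74% and 0.35% of all genes were. The 28 hold no member called without the block, so their counts and these shares are not like for like. Rab11b, a Rab of recycling endosomes, was lower with the block in all 3 groups (-0.71, -0.67 and -0.56; adjusted p = 0.000834, 0.00129 and 0.00402, against 0.124, 0.163 and 0.254 without). The others called with the block were Rab27b (higher in CCR2+ and MHC-IIlo), Rab3a (lower) and Rab9b (higher) in CCR2+, Rab40c (higher) in MHC-IIHi, Rab21 (lower) in MHC-IIlo, and Rab33b and Rab9 (lower) with Rab40c and Rab9b (higher) over the mean, at adjusted p 0.0242 to 0.0498. Rab27b's other probe had lower means in both these groups than in monocytes. It read -1.44 to -0.45 in CCR2+, -1.26 to 0.06 in MHC-IIlo macrophages and -0.58 to 0.10 in monocytes. The other probes of Rab9 lay below monocytes in MHC-IIHi macrophages without overlap (-3.58 to -2.14 against -1.90 to -1.23, and -5.58 to -4.06 against -3.67 to -2.61). The Rab9 probe used overlapped there. In the fit without the block, against monocytes 12, 15 and 17 of the 28 were higher in CCR2+, MHC-IIHi and MHC-IIlo macrophages and 16, 13 and 11 lower. Their differences ran from -0.71 ± 0.31 (Rab11b) to 1.63 ± 0.84 (Rab26, a Rab of secretory granules) in CCR2+, from -0.69 ± 0.29 (Rab18) to 1.28 ± 0.84 (Rab26) in MHC-IIHi and from -0.58 ± 0.33 (Rab21) to 1.28 ± 0.84 (Rab26) in MHC-IIlo macrophages. The adjusted p for Rab26 was 0.198, 0.356 and 0.354.

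Between the macrophage groups, Rab34 was the only member called. CCR2+ macrophages differed from MHC-IIHi by -2.00 ± 0.41 (adjusted p = 0.0258) and from MHC-IIlo macrophages by -2.44 ± 0.41 (adjusted p = 0.00329). As CCR2+ levels lay near background, with 3 of 4 arrays well above it, these sizes are uncertain and no fold is given. Rab34 was lower in CCR2+ macrophages on 4 of 4 slides in both comparisons, and the ranges did not overlap. These 2 comparisons share the CCR2+ arrays. One of 54 members (1.85%) was thus called in each, where 1.26% of all genes were called against MHC-IIHi (0.636% lower) and 2.81% against MHC-IIlo macrophages (1.30% lower). With the block, 4 members were called against MHC-IIlo macrophages (Rab34, Rab20, Rab31 and Rab43), where 5.74% of all genes were. The difference between CCR2+ and MHC-IIHi ended without CCR2+ replicate 1 or 4 or MHC-IIHi replicate 1 or 3 (adjusted p 0.0667 to 0.0878), under median scaling (0.0577), normexp (-1.20, 0.239) and with only the pair of groups fitted (0.128). The difference from MHC-IIlo ended after normexp (-1.51, 0.054).

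None of the cardiomyocyte, endothelial or fibroblast markers was called between macrophage groups. The summed platelet markers stood at 15.8 to 19.8 in CCR2+, 29.4 to 41.6 in MHC-IIHi and 46.0 to 58.1 in MHC-IIlo macrophages, and those of T and NK cells at 3.04 to 4.73, 7.51 to 9.69 and 5.70 to 7.79, against 2.11 to 4.27 in monocytes. Both sums were thus lower in CCR2+ macrophages than in the others without overlap, as Rab34 was. A sum is led by its brightest genes and does not show that each marker of a list moved. The part of these cells' RNA in the Rab34 difference was not tested. The monocyte markers were higher in CCR2+ macrophages, with 4 of 5 called against each other group. Rab34 gave no monocyte signal well above background, and the part of monocyte RNA in its lower CCR2+ level was not tested. Between MHC-IIHi and MHC-IIlo macrophages no member was called by limma, where 0.0726% of all genes were. With the block none was called either, where 0.35% of all genes were. Before adjustment 4 of 54 members had a p under 0.05 in limma, and the share of all genes at that threshold is not given here.

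The proteins that load, switch and read Rabs were taken as lists. Of 8 genes of prenylation, escort and GDP dissociation, 1 was called lower and none higher over the mean of the macrophages. Over all genes 15.2% were lower and 12.3% higher. The gene called was Rabif, which binds nucleotide-free Rabs, at -0.93 ± 0.29 (adjusted p = 0.0339), -0.72 ± 0.29 (adjusted p = 0.0996) and -0.95 ± 0.29 (adjusted p = 0.0287) in the CCR2+, MHC-IIHi and MHC-IIlo macrophages. The inhibitor Gdi2, the escort protein gene Chml, Rabac1 and Rabggta were not called in any comparison.

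Of 30 exchange factors measured, 6 were called higher and 4 lower over the mean of the macrophages, near the 27.6% of all genes. Rab3il1, an exchange factor for Rab3a and Rab8a, read 2.62, 1.68, 2.05 and 1.81 in the CCR2+ macrophages, 3.08, 2.36, 2.88 and 2.33 in the MHC-IIHi macrophages, 3.25, 2.10, 2.36 and 2.04 in the MHC-IIlo macrophages and -2.52, -4.14, -4.70 and -5.28 in the monocytes. All macrophage arrays were well above background and 1 monocyte array was, with ranges far apart. The difference was 6.20 ± 0.47 (adjusted p = 1.76e-07) in the CCR2+, 6.82 ± 0.47 (adjusted p = 3.89e-08) in the MHC-IIHi and 6.60 ± 0.47 (adjusted p = 5.37e-08) in the MHC-IIlo macrophages. With monocytes mostly at background its size is uncertain, and after normexp it was 4.30, 4.85 and 4.65. The Rab8a that it acts on was lower in the same comparisons, and Rab3a was not called without the block. Dennd1a, an exchange factor for Rab35, was higher by 0.61 ± 0.17 (adjusted p = 0.0148), 0.64 ± 0.17 (adjusted p = 0.011) and 0.64 ± 0.17 (adjusted p = 0.0106). Dennd2d, another exchange factor, differed by -1.22 ± 0.29 (adjusted p = 0.00689), -1.45 ± 0.29 (adjusted p = 0.00186) and -1.41 ± 0.29 (adjusted p = 0.00216). Between macrophage groups, the Rab5 exchange factor Rin3 was higher in CCR2+ than in MHC-IIlo macrophages, 1.60 ± 0.31 (adjusted p = 0.0102), and its relative Rin2 lower, -0.70 ± 0.15 (adjusted p = 0.0145).

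Of 32 GTPase-activating proteins, 6 were called higher and 4 lower over the mean, where 12.3% of all genes were higher and 15.2% lower. Tbc1d4, which acts on Rab10 and related Rabs of delivery to the plasma membrane, read -0.25, -0.66, 0.83 and 0.36 in the CCR2+ macrophages, 1.26, 1.31, 2.19 and 0.97 in the MHC-IIHi macrophages, 1.96, 1.73, 1.63 and 1.52 in the MHC-IIlo macrophages and -2.40, -1.65, -1.99 and -0.63 in the monocytes. All macrophage arrays lay above all monocyte arrays except CCR2+ replicate 2, which lay just below monocyte replicate 4. The difference was 1.74 ± 0.38 (adjusted p = 0.00415) in the CCR2+, 3.10 ± 0.38 (adjusted p = 2.38e-05) in the MHC-IIHi and 3.38 ± 0.38 (adjusted p = 9.52e-06) in the MHC-IIlo macrophages, and CCR2+ macrophages differed from MHC-IIlo by -1.64 ± 0.38 (adjusted p = 0.0299). Tbc1d16 was higher in each group, by 2.35 ± 0.40 (adjusted p = 0.000514), 2.98 ± 0.40 (adjusted p = 4.81e-05) and 2.87 ± 0.40 (adjusted p = 6.88e-05), as were Tbc1d9b (1.30 ± 0.19, adjusted p = 8.41e-05 over the mean) and Tbc1d14 (0.94 ± 0.19, adjusted p = 0.00142). Tbc1d13 was lower over the mean, -0.94 ± 0.26 (adjusted p = 0.0114), and so was Tbc1d8, -1.39 ± 0.41 (adjusted p = 0.0175).

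Of 43 effectors measured, 9 were called higher and 4 lower over the mean, where 12.3% of all genes were higher and 15.2% lower. A pair of Rab11 effectors went opposite ways. Rab11fip5 read 1.73, 1.10, 1.62 and 1.19 in the CCR2+ macrophages, 2.73, 2.27, 2.58 and 2.12 in the MHC-IIHi macrophages, 3.11, 2.52, 2.89 and 2.46 in the MHC-IIlo macrophages and -0.16, -0.33, -0.39 and -0.68 in the monocytes, in ranges that lay apart for monocytes, CCR2+ macrophages and the other macrophages. It differed by 1.80 ± 0.22 (adjusted p = 2.71e-05) in the CCR2+, 2.82 ± 0.22 (adjusted p = 1.52e-07) in the MHC-IIHi and 3.14 ± 0.22 (adjusted p = 4.33e-08) in the MHC-IIlo macrophages, and was lower in CCR2+ than in MHC-IIHi (-1.01 ± 0.22, adjusted p = 0.0315) and MHC-IIlo macrophages (-1.34 ± 0.22, adjusted p = 0.00244). Rab11fip1 read -0.74, 0.12, 0.18 and -0.17 in the CCR2+ macrophages, -2.26, -1.51, -1.89 and -0.89 in the MHC-IIHi macrophages, -1.76, -1.75, -1.94 and -2.10 in the MHC-IIlo macrophages and 0.39, 1.28, 0.71 and 0.90 in the monocytes. Monocytes lay highest, CCR2+ macrophages next and the other macrophages lowest, again with no overlap between these 3 levels. It differed by -0.97 ± 0.29 (adjusted p = 0.0253) in the CCR2+, -2.46 ± 0.29 (adjusted p = 1.43e-05) in the MHC-IIHi and -2.71 ± 0.29 (adjusted p = 4.94e-06) in the MHC-IIlo macrophages, and was higher in CCR2+ than in MHC-IIHi (1.49 ± 0.29, adjusted p = 0.0182) and MHC-IIlo macrophages (1.73 ± 0.29, adjusted p = 0.00289).

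Lrrk2, a kinase that phosphorylates Rab8a, Rab10 and Rab12 and is itself recruited by Rab29, read -4.21, -3.15, -4.14 and -3.68 in the CCR2+ macrophages, -5.85, -4.48, -4.63 and -5.96 in the MHC-IIHi macrophages, -3.34, -5.95, -5.64 and -5.98 in the MHC-IIlo macrophages and -0.30, -0.56, -0.36 and -0.35 in the monocytes. All monocyte arrays were well above background and no MHC-IIHi array was, which makes the monocyte level at least 12.8-fold higher than theirs. The difference was -3.40 ± 0.51 (adjusted p = 0.000194) in the CCR2+, -4.84 ± 0.51 (adjusted p = 4.71e-06) in the MHC-IIHi and -4.84 ± 0.51 (adjusted p = 4.3e-06) in the MHC-IIlo macrophages. With MHC-IIHi arrays at background and most MHC-IIlo arrays reading as low, these sizes are uncertain. Mical1, an effector of Rab8-type Rabs, differed from monocytes by -1.71 ± 0.30 (adjusted p = 0.000699) in MHC-IIHi and -2.29 ± 0.30 (adjusted p = 4.55e-05) in MHC-IIlo macrophages and was higher in CCR2+ than in MHC-IIlo macrophages (1.43 ± 0.30, adjusted p = 0.0167). Bicd2, which links Rab6 vesicles to dynein, was higher by 1.41 ± 0.20 (adjusted p = 5.95e-05) over the mean, and Ocrl, a phosphatase that binds several Rabs, by 1.39 ± 0.23 (adjusted p = 0.000261).

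**Figure D5:**
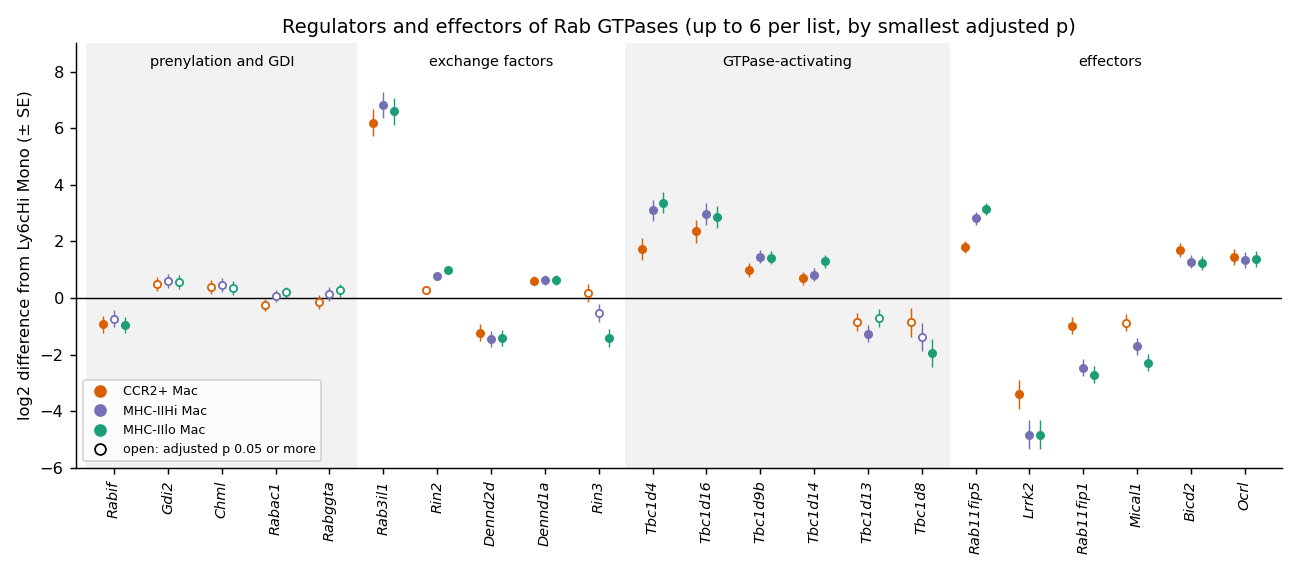
Log2 difference of each macrophage group from the Ly6cHi monocytes (y axis, ± SE) for 22 regulators and effectors of Rabs (x axis), up to 6 from each of 4 lists, by smallest adjusted p in any comparison; filled points have an adjusted p under 0.05. Rab3il1, near background on 3 of 4 monocyte arrays, lies above 0 and Lrrk2 below 0 in all 3 groups.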

How the data were processed

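RNA of 16 sorted samples, 4 in each of 4 groups, was hybridised to single-colour (Cy5) Agilent arrays, 1 sample each, per the labels. Spot intensities were deposited as the scanner software left them (Agilent Feature Extraction 11.5.1.1, with Partek also listed, per the submitters' processing notes), and the processed intensity is background-corrected and rounded to 3 significant digits, per the file headers and values. The other deposited columns used were flags for outlier spots and for spots well above background. Array names and gene symbols came from the scanner files.

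Control spots (1377) and outlier spots were left out, spots of a probe averaged, and log2 of the processed intensity was taken relative to each array's 75th percentile. Of 39429 probes, 27662 were well above background on at least 4 of 16 arrays and 110 had no usable spot. The brightest probe by mean level stood for a gene. This left 22024 genes, fitted with limma 3.58.1 (R 4.3.3) over all 4 groups, with moderated variances and Benjamini-Hochberg adjustment over all genes; a call is an adjusted p under 0.05. The steps were tested on simulated data.

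The replicate number is also the slide and scan, with 1 array of each group per slide. Same-numbered arrays of different groups deviated together from their group means (r 0.139 to 0.639 over 24 pairs; other pairs -0.535 to 0.492 over 72), so the fit with replicate as a block was also run. The array's position on the slide matches the group and cannot be told apart from it. Alternatives were other scaling, normexp background correction, filters, probe choice, array weights, fewer groups and leaving out each array. A fit by probe was added after the data were seen. Arrays give no counting depth, and their number limits the precision.

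Array values are given for the 19 members with a call and 7 more from a set list of 11 Rabs (26 in all), and for up to 6 genes of each list of Rab regulators and effectors with the smallest adjusted p; 2 of these genes are not reported here. Members and lists were chosen with earlier results of these data known. The series' own processed value table was not used here.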

Additional observations from a re-analysis of the deposited data

Results flagged for a closer look

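In 6 of 104 groups of 4 arrays (26 Rab genes in 4 groups), 1 array stood apart from the other 3 by Dixon's test at the 95% level. Chance gives about 1 in 20 groups.

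In the CCR2+ macrophages, Rab11a read -1.43 on replicate 4, against -0.56 to -0.39 on the others. Rab20 read 0.82 on replicate 1 of the same group, against -0.09 to 0.03. Rab6b read -0.33 on that replicate, against -1.25 to -1.13. Rab44 read -2.72 on replicate 4, against -3.07 to -3.02.

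Rab44 also read -1.29 on replicate 3 of the MHC-IIlo macrophages, against -2.55 to -2.45. Rab13 read -3.72 on monocyte replicate 2, against -5.30 to -5.13. That Rab13 level was not well above background.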

How the results depend on the processing

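For the 26 Rab genes given by array, 58 differences were called. Of these, 35 kept their direction and call under every alternative run for their comparison (17 or 18 for a pair of groups, 25 for the mean), 22 lost the call under at least 1 and 1 changed sign. A further 29 were called under some alternative alone. Leaving out 1 array at a time kept 45 of 58 calls, and the 13 others are named with their genes. The block ended 1 call (Rab2b over the mean) and made 16, each given with its gene, and it changed no other call of these genes.

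No called difference changed sign when 1 array was left out, while 32 of 124 uncalled ones did, all of size 0.36 or less. Among differences called under some setting, these changed sign. Rab13 in CCR2+ macrophages against monocytes was -0.20 under quantile normalization, where the other probe became the brighter, and -0.16 on the other probe. Rab25 was -0.15 in CCR2+ macrophages and -0.08 over the mean after normexp. Rab4a in CCR2+ macrophages was 0.79 as the mean of its probes, 1.70 on the other probe, and -0.28 to 0.10 when 1 array was left out (0.03 without CCR2+ replicate 1, 0.10 without monocyte replicate 1). Only the first was called in the reported fit, and the cause was not tested except where the probe changed.

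Member counts moved by over 1.5 times as follows. Against monocytes, CCR2+ macrophages had 20 calls with the block (12 without). Between CCR2+ and MHC-IIHi macrophages there was 1 call, and 0 under median scaling, normexp or with only these groups, 2 with the mean of a gene's probes and 3 with array weights. Between CCR2+ and MHC-IIlo there was 1 call, and 2 under quantile normalization, 3 with the mean of probes, 4 with the block and 3 with weights. Leaving out 1 array gave 10 to 13, 12 to 15 and 12 to 16 calls for CCR2+, MHC-IIHi and MHC-IIlo macrophages against monocytes, 12 to 18 for the mean, 0 to 1 for CCR2+ against MHC-IIHi, 1 to 2 against MHC-IIlo (2 without MHC-IIlo replicate 1) and 0 for MHC-IIHi against MHC-IIlo. Genes near background have only a bound.

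Over all genes, the counts against monocytes (4850, 4726 and 6074 for CCR2+, MHC-IIlo and the mean) became 8601, 7192 and 9724 with no filter on dim probes, and 7469 and 7107 with the block for the first pair. The 277, 619 and 16 calls between macrophage groups became 549, 1265 and 77 with the block, 954, 1200 and 91 with array weights and 173, 383 and 8 under median scaling. Leaving out 1 array gave 158 without CCR2+ replicate 2, 162 without MHC-IIHi replicate 3 and 166 without CCR2+ replicate 1 in place of 277, and 412 without MHC-IIlo replicate 3 in place of 619. In place of 16 it gave 0 without MHC-IIlo replicate 2 or 3, and 2, 9 and 4 without MHC-IIHi replicates 1, 3 and 4. With only the groups compared, 619 became 330 and 16 became 0. Normexp moved the median of all genes against monocytes to -0.25, -0.20 and -0.22 in the CCR2+, MHC-IIHi and MHC-IIlo macrophages, and median scaling to -0.16, -0.16 and -0.14.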

Other observations

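Rab3c, a Rab of regulated secretion, differed more between replicate numbers, which are also the slides, than between groups. It read 1.82, 3.30, 2.41 and 3.43 in the CCR2+ macrophages, 1.76, 3.13, 2.50 and 3.11 in the MHC-IIHi macrophages, 1.88, 3.27, 2.35 and 3.36 in the MHC-IIlo macrophages and 2.37, 2.99, 2.22 and 3.19 in the monocytes. Replicates 2 and 4 were the highest in all 4 groups. The same held for Rab15 and Rab27b. For Rab10, Rab1b, Rab5b, Rab5c, Rab7, Rab7l1, Rab11b, Rab14, Rab32 and Rab35, replicates 1 and 3 were the highest in all 4 groups. Rab7l1 and Rab32 are among the members called lower in each macrophage group. The slide's part in this was not tested.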
